A study of Mus musculus with 15 samples.

Results

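The genes described here are the nuclear genes for the subunits of oxidative phosphorylation, taken by symbol: every mouse gene whose RefSeq symbol starts with Nduf, Sdha, Sdhb, Sdhc, Sdhd, Uqcr, Cox4i, Cox5, Cox6, Cox7, Cox8 or Atp5. The RefSeq gene table held 119 such genes, of which 19 were pseudogenes, and none of the pseudogenes had a probe. Of the 100 protein-coding genes 97 had a probe, and the genes without one were Ndufb1, Ndufb4b and Ndufb4c. A further 4 genes did not pass the filter on dim probes, which left 93 members tested among 13391 genes tested on the array. The prefixes bring in 12 assembly factors (Ndufaf and Sdhaf genes), which help to build complexes I and II without staying in them, and these are kept apart below. The other 81 members fall into complex I with 36, complex II with 4, complex III with 8, complex IV with 16 and complex V with 17 genes. Every one of the 93 was well above background on all 5 arrays of each group, so none entered the test through a single group.

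Expression was measured on 15 one-colour microarrays, 5 for each of 3 groups of liver macrophages from male mice. Macrophages with high F4/80, a surface protein of mature macrophages, were sorted from collagenase-digested livers by CD11c, an integrin chain found on dendritic cells and on some activated macrophages. The wildtype group (WT_SD) was CD11c-negative cells of wildtype mice on standard diet, whose age the sources used here do not give. The other groups were the CD11c-negative and the CD11c-positive cells of MC4R-KO mice, which lack the melanocortin 4 receptor and had been fed a Western diet for 20 weeks from 8 weeks of age (MC4R_WD). Their livers are labelled NASH (non-alcoholic steatohepatitis), and those of the wildtype mice normal. RNA was pooled from 7 to 9 mice per sample. Genotype, diet and disease differ together between the wildtype and the MC4R-KO groups, so the comparison of the CD11c-negative groups cannot separate them.

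Oxidative phosphorylation is the process by which mitochondria turn nutrients into ATP. Complexes I and II take electrons from NADH and succinate and pass them to ubiquinone, complex III hands them on to cytochrome c, and complex IV passes them to oxygen. Complexes I, III and IV pump protons across the inner mitochondrial membrane, and the proton gradient drives complex V, the ATP synthase. In macrophages this machinery is known for differing with activation, with inflammatory stimuli shifting cells to glycolysis and alternative activation relying more on respiration. The subunits encoded by the mitochondrial genome, which form the proton-pumping cores, are not among these genes.

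Since these genes are often discussed as a group driven by a few transcription factors, their promoters were searched for 4 short motifs in the RefSeq windows of build GRCm38.p6 from 250 bases before to 50 after each gene's start. Of the 93 members 78 had an entry, with 83 windows in all. The motif of NRF1 (GCGCATGCG on either strand) was in 10 of the 83 windows, or 12.1%, against 1.75% of all 32851 windows and 3.23% of the 13545 windows of genes tested here. ETS factors such as GABPA (CCGGAAG) matched 26.5% of the members' windows, against 8.86% of all and 15.9% of those tested. YY1 (ATGGCGG) matched 16.9%, 4.05% and 7.32%, and ERR (CAAGGTCA) 4.82%, 1.56% and 1.16% in the same order. A match is a string of letters and no measured site. The NRF1 letters read nearly the same on both strands, so matches on the opposite strands can overlap, and each window was counted once.

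The NRF1 matches that lay wholly before the start are shown with 10 bases on either side (9 before that of Atp5l, where the window begins), 5′ to 3′ on the strand of the gene, with the matched letters in capitals. They are shown because they are the stretch these members share. They were chosen by the match and not by their expression.
Atp5g2, a c-ring subunit of complex V, at chr15:102671070-102671099 (minus strand): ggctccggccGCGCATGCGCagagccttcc
Atp5k, a membrane subunit of complex V, at chr5:108434430-108434459 (minus strand): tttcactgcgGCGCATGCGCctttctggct
Atp5l, a membrane subunit of complex V, at chr9:44920965-44920992 (minus strand): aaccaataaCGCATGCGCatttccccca
Cox6a1, a subunit of complex IV, at chr5:115349101-115349130 (minus strand): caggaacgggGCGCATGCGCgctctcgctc
Ndufa11, a subunit of complex I, at chr17:56717692-56717721 (plus strand): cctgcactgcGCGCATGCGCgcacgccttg
Ndufaf4, an assembly factor of complex I, at chr4:24897960-24897989 (plus strand): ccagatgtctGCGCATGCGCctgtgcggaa
The changes of these 6 genes between the CD11c-negative groups ran from 0.05 for Ndufaf4 to 0.68 for Atp5l (log2), against -0.09 to 1.96 for all 93 members. The median change was 0.52 for the 10 members with an NRF1 match and 0.44 for the other members with a window, 0.41 and 0.45 for ETS, 0.34 and 0.47 for YY1, and 0.38 and 0.45 for ERR.

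Of the members with an entry, Ndufb8 had the highest and Ndufaf7 the lowest change between the CD11c-negative groups, and the 250 bases before their starts are given for that reason. Cox6a2, with the highest change of all, had no entry.
Ndufb8, chr19:44555443-44555692, minus strand: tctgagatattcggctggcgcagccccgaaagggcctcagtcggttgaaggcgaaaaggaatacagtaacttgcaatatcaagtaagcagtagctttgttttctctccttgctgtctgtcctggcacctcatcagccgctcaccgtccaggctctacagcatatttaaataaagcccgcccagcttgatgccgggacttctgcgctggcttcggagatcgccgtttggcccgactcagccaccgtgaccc
Ndufaf7, chr17:78936885-78937134, plus strand: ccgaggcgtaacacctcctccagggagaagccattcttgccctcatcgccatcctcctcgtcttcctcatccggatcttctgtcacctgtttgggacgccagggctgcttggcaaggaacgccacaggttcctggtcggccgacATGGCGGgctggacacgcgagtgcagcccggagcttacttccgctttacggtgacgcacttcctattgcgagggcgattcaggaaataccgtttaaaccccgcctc
The stretch before Ndufb8 held none of the 4 motifs. The one before Ndufaf7 held a single match, to YY1, from 106 to 100 bases before the start, written in capitals.

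Values below are log2 signals relative to the 75th percentile of the array, so a level of 0 is that percentile, and a difference of 1 is a 2-fold change. The 75th percentile itself ranged from 359 to 562 intensity units, and 45.8% to 58.0% of an array's spots were well above background. A member varied between the 5 arrays of a group by a median SD of 0.053 in wildtype, 0.068 in CD11c-negative and 0.051 in CD11c-positive cells (log2). Itgax, which encodes CD11c, stood at 4.21, 5.93 and 7.29 in these groups, and Adgre1, which encodes F4/80, at 7.34, 7.74 and 7.31, where the higher Adgre1 of the CD11c-negative MC4R-KO cells turned to -0.06 relative to wildtype under quantile normalization. All 10 measured macrophage markers passed the filter. Between the CD11c-negative groups 4 rose and 5 fell, while all 10 fell from CD11c-negative to CD11c-positive cells. Their summed linear level was 3918 to 4298 in wildtype, 3368 to 3688 in CD11c-negative and 2690 to 2920 in CD11c-positive MC4R-KO arrays. Such a sum weighs the brightest genes most. Markers of other cells moved too. Of 10 measured neutrophil genes 9 rose between the CD11c-negative groups and 9 fell in CD11c-positive cells, with a summed linear level of 408 to 428 in wildtype, 1550 to 1697 in CD11c-negative and 638 to 672 in CD11c-positive MC4R-KO arrays. Monocyte markers gave 78.7 to 85.6, 165 to 181 and 107 to 114. Of 5 tested, 2 rose, 1 fell and 2 did not pass between the CD11c-negative groups, with a median of 0.04 and Chil3 highest at 3.33. Platelet markers gave 38.6 to 41.9, 95.3 to 105 and 65.2 to 68.7, from 2 tested genes. In CD11c-positive against wildtype cells these were Pf4 at 0.72 and Ppbp at -0.34. Conventional dendritic cell markers gave 35.6 to 38.2, 20.7 to 22.9 and 46.0 to 49.6, and 6 of 7 fell between the CD11c-negative groups. From CD11c-negative to CD11c-positive MC4R-KO cells 6 of 7 rose and 0 fell, with a median of 2.95 and Flt3 highest at 4.35. Of 5 natural killer cell markers 4 rose and 0 fell in that step, with a median of 1.31. Of 6 T cell markers 4 rose and 1 fell there, and all 3 erythroid markers fell. Liver sinusoidal endothelial markers gave 284 to 310, 175 to 183 and 115 to 119 in the 3 groups. Hepatocyte markers gave 88.7 to 98.2, 39.5 to 43.6 and 29.4 to 32.1, and of 8 tested 5 fell and 2 rose between the CD11c-negative groups. The part of these cells in the results was not tested. In sorted bulk RNA, fewer cells of a type and less RNA per cell cannot be told apart. The arrays lay on 2 slides. Wildtype and CD11c-negative MC4R-KO replicates 1 to 3 were on slide 1 and replicates 4 and 5 on slide 2. CD11c-positive replicates 1 and 2 were on slide 1 and replicates 3 to 5 on slide 2. Fits within a slide thus rest on fewer arrays per group. The labels do not say that samples came from separate pools of mice. The p-values therefore rest on how much these samples varied, and that variation may be technical.

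On 75th-percentile scaling, the members as a group were higher in both MC4R-KO groups than in wildtype cells. Per array, the median over the 93 members, each centred on its own mean of 15 arrays, lay between -0.30 and -0.23 in wildtype, between 0.11 and 0.25 in CD11c-negative and between 0.06 and 0.11 in CD11c-positive cells. The same median over all 13391 genes lay between -0.13 and -0.08, between -0.02 and 0.07, and between 0.03 and 0.09. The wildtype arrays were thus below all others for the members and for genes at large, and by more for the members. The slide-2 arrays were higher in each group. Within slide 1 the members' medians were 0.11 to 0.15 in CD11c-negative and 0.06 to 0.07 in CD11c-positive cells, and within slide 2 they were 0.23 to 0.25 and 0.10 to 0.11, so that the MC4R-KO groups were apart on each slide and overlapped with the slides pooled.

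**Figure D1:**
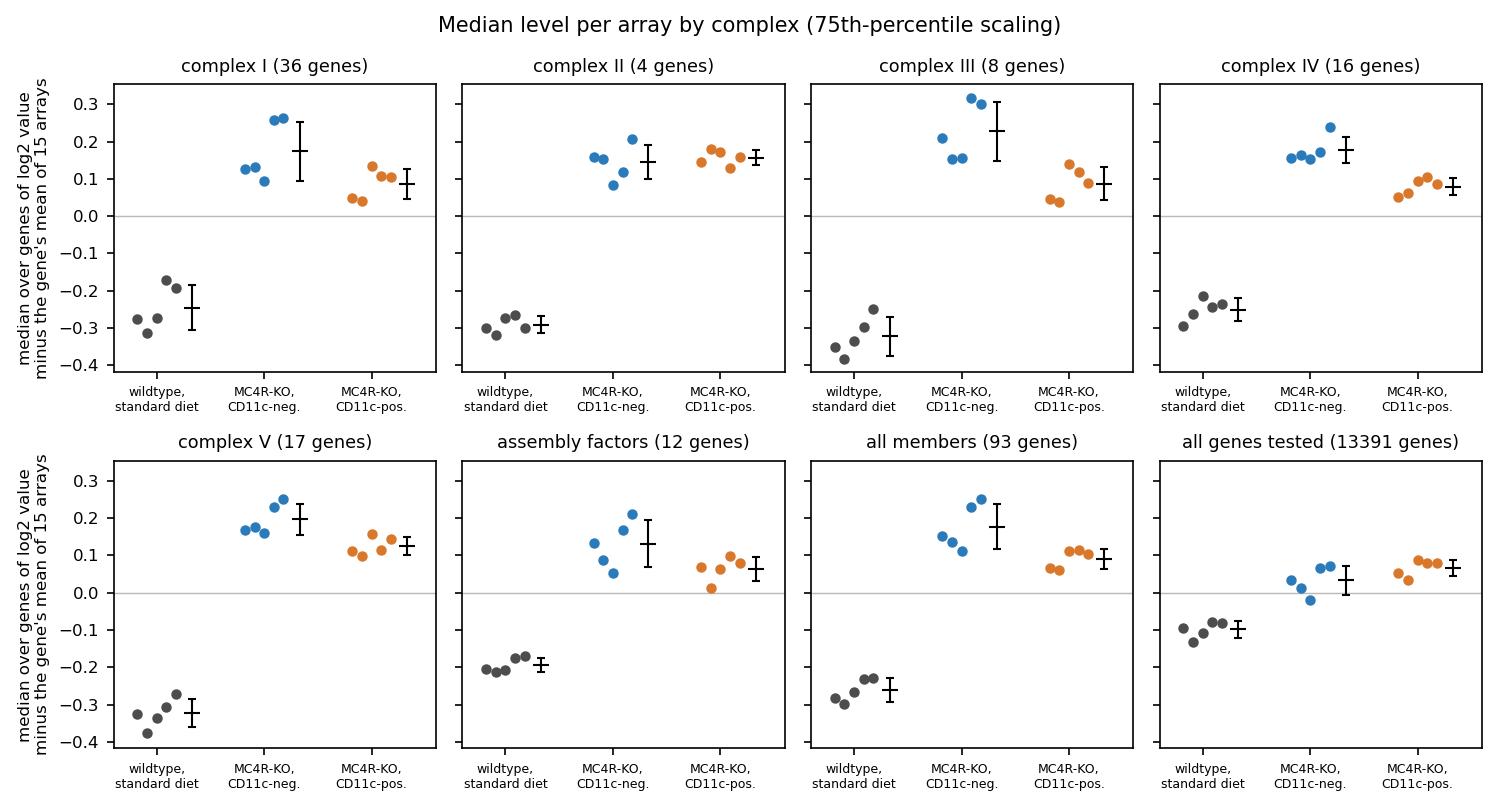
Median level per array and complex, on 75th-percentile scaling: the y axis is the median over genes of the log2 value minus that gene's mean over the 15 arrays, each point is an array, and the cross and bar are mean and SD of the 5 arrays. For all members the wildtype arrays sit between -0.30 and -0.23, below all MC4R-KO arrays, and genes at large show a smaller step; under quantile normalization the members' step shrinks to a median difference of 0.08.

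Comparing CD11c-negative cells of MC4R-KO livers with CD11c-negative cells of wildtype livers asks how macrophages of the same CD11c gate differ between the NASH and the normal liver. Of the 93 members 87 rose, where 48.3% of all genes tested rose, and 0 fell, where 28.5% of all genes fell (limma, adjusted p under 0.05). At an unadjusted p under 0.05, 0 members were lower. Wildtype and CD11c-negative MC4R-KO arrays were fully apart for 85 of 93 members, or 91.4%, against 64.1% of all genes. The median member differed by 0.44, against 0.13 for the median of all genes, or 0.30 relative to that median. Most of the changes were small, and on the probe standing for each gene only Cox6a2 passed 2-fold.

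How far this rise goes beyond genes at large depends on the scaling. After quantile normalization, which forces all arrays to the same distribution and brings the median of all genes to 0.00, 48 members were higher, 18 lower and 27 did not pass, with a median of 0.08, and the share of all calls that were higher went from 62.9% to 49.0%. Of the members 51.6% were higher and 19.4% lower there, against 36.1% and 37.6% of all genes. All 48 were also called higher on the first scale, where 14 of the 18 had been called higher as well. When each array was instead centred on its median, 85 were higher and 3 lower. The members are bright genes: 73 of 93 lay in the brightest of 5 equal classes of genes by mean level, where the median of all genes was 0.35 and that of the members 0.46. The median of all genes climbed from -0.10 in the dimmest to 0.35 in the brightest class, while after quantile normalization it stayed between -0.05 and 0.02. In the brightest class after quantile normalization, the median was 0.01 for all genes and 0.05 for the members. In the other classes that held members, from the dimmer to the brighter, with 4, 9 and 7 members, the members' medians were 0.31, 0.40 and 0.38, and 0.35, 0.31 and 0.19 after quantile normalization. Whether the arrays' signal distributions or the RNA of the cells set this trend with brightness was not tested.

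**Figure D2:**
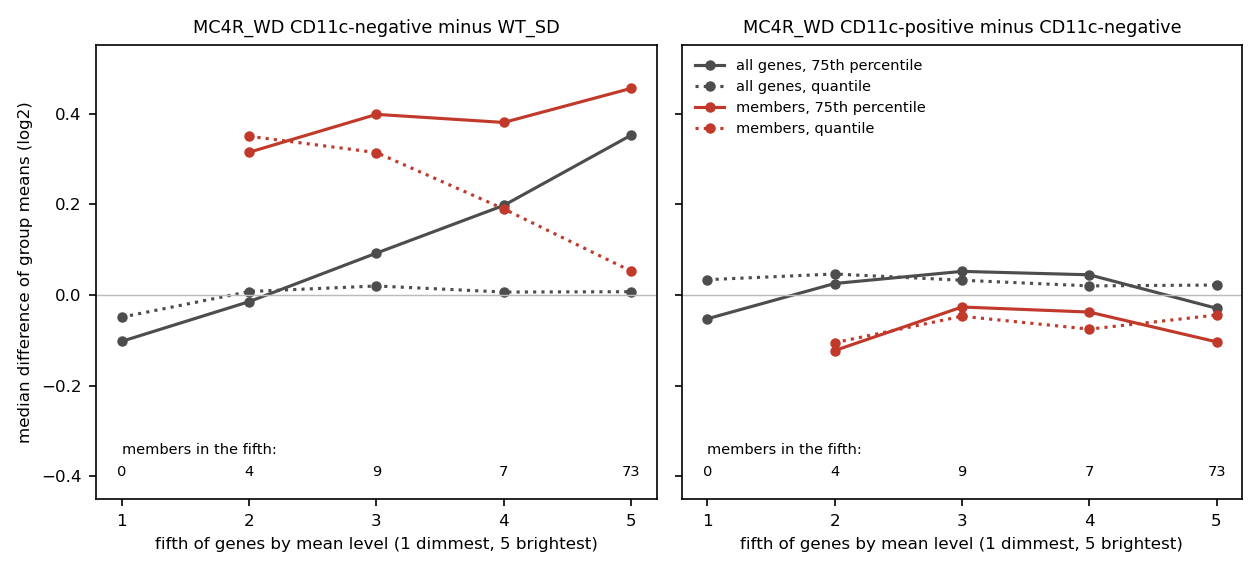
Median difference of group means (log2, y axis) of all genes and of members in 5 equal groups of genes by mean level (x axis, 1 dimmest), for 2 comparisons, with solid lines for 75th-percentile scaling and dotted lines for quantile normalization; the numbers along the bottom count the members. For the CD11c-negative groups the solid grey line climbs from -0.10 to 0.35 while the dotted one stays near 0, and the members' median in the brightest class is 0.46 on the first scale and 0.05 on the other.

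Within the MC4R-KO livers, CD11c-positive cells were compared with CD11c-negative cells to ask what differs with CD11c in the same disease. Of the 93 members 10 rose, where 29.9% of all genes rose, 43 fell, where 23.2% of all genes fell, and 40 did not pass. The groups did not overlap for 37 members, or 39.8%, against 39.5% of all genes, a share near the background with the slides pooled. The median member differed by -0.10, against 0.01 for all genes, and the members ranged from -0.42 to 0.33. After quantile normalization 19 members were higher and 33 lower with a median of -0.05, and 31 of the 33 had been called lower before. These were 20.4% and 35.5% of the members, against 32.7% and 21.9% of all genes. With normexp background correction 23 fell, or 24.7% of the members, against 25.5% of all genes. Fewer rose on slide 2 alone, with 4, and 6 rose when CD11c-negative replicate 1 or 3 or CD11c-positive replicate 3 or 5 was left out. The falls numbered 34 within slide 1, 52 within slide 2 and 59 with slide as a block.

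Set against wildtype cells, the CD11c-positive cells had 85 members higher, where 51.3% of all genes were higher, and 2 lower, where 26.3% were lower. The groups did not overlap for 83 members, or 89.2%, against 69.3% of all genes. The median member differed by 0.35, against 0.16 for all genes. In the brightest of the 5 classes, with 73 of the members, the medians were closer. There the median was 0.37 for the members and 0.32 for all genes, or 0.06 and 0.03 after quantile normalization. This comparison shares its arrays with both others and adds no independent evidence to them. With quantile normalization 43 were higher and 18 lower with a median of 0.07, and 15 members changed from higher to lower. The 43 and 18 were 46.2% and 19.4% of the members, against 40.7% and 34.1% of all genes.

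**Figure D3:**
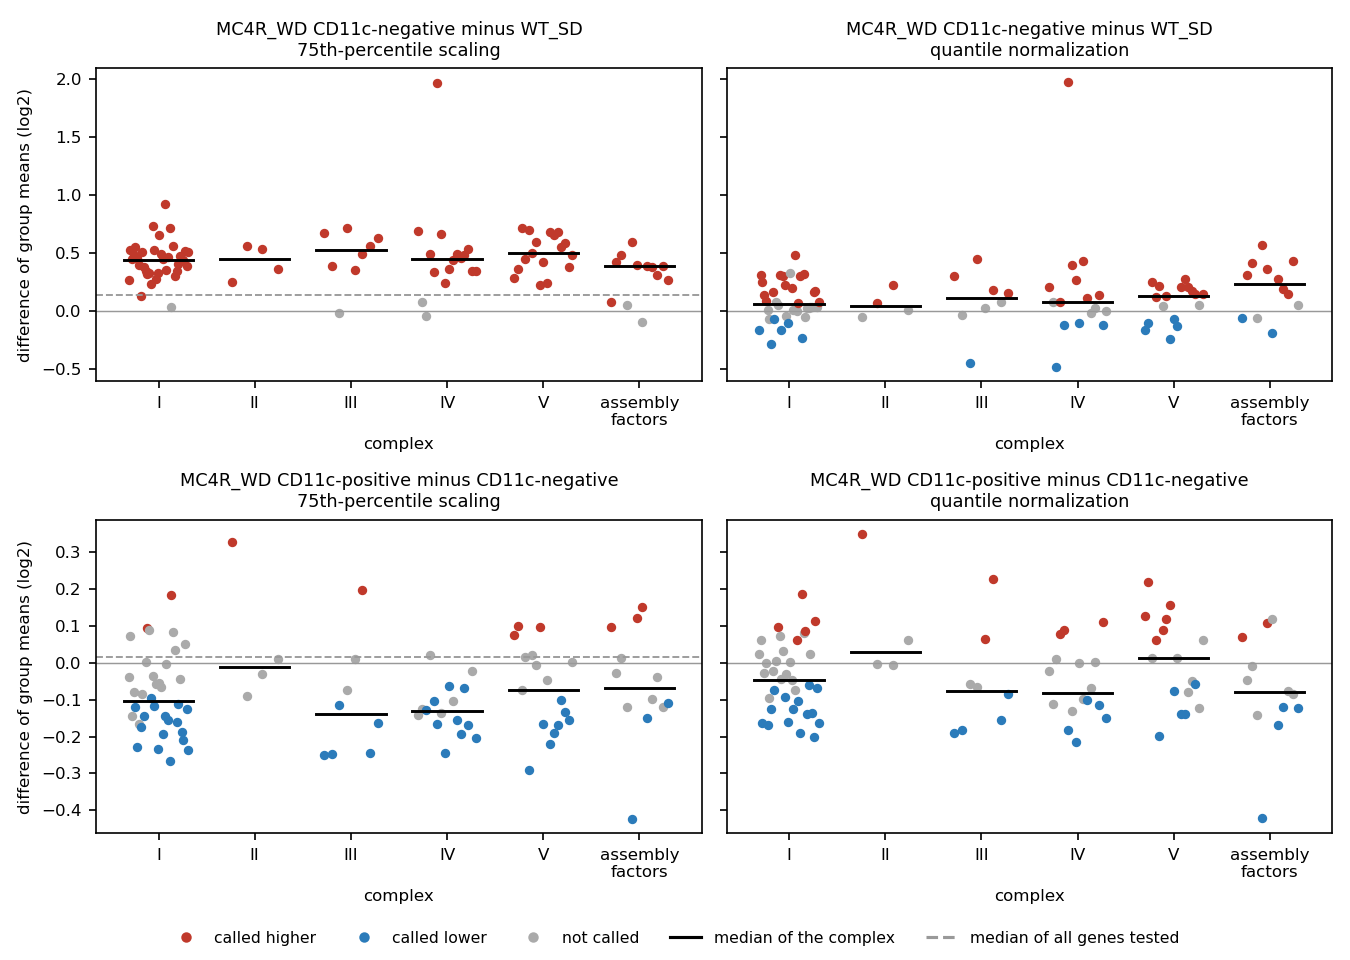
Difference of group means (log2, y axis) of each member by complex (x axis) for 2 comparisons and 2 scalings, with a point per member coloured by its call (limma, adjusted p under 0.05), a black bar for the median of the complex and a dashed line for the median of all genes on 75th-percentile scaling. Nearly all members are called higher in CD11c-negative MC4R-KO cells on 75th-percentile scaling. After quantile normalization 18 are called lower, or 19.4% against 37.6% of all genes. Cox6a2 stands alone near 2 on both.

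Complex I, the NADH dehydrogenase, had 36 members tested: 7 core subunits that bind the flavin and the iron-sulphur clusters, and 29 supernumerary subunits around them. In CD11c-negative MC4R-KO cells 35 rose against wildtype, with a median of 0.44 (0.06 after quantile normalization, with 16 higher and 6 lower). Of the core subunits 6 rose. Ndufv1, which binds NADH and the flavin, rose by 0.52 (SE 0.035), and stayed higher after quantile normalization, with 0.17. Ndufs7 and Ndufs8, which carry the clusters nearest the quinone, gave 0.44 ± 0.055 and 0.44 ± 0.047, with 0.04 and 0.16 after quantile normalization. Ndufv2, which holds a cluster beside the flavin, gave 0.39 ± 0.039 and Ndufs3, a subunit of the arm in the matrix, 0.30 ± 0.039, and these were 0.03 and -0.05 after quantile normalization.

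Ndufs1, the largest core subunit and the carrier of several clusters, was the member of complex I that did not pass. The Ndufs1 level was 3.74, 3.71, 3.79, 3.86 and 3.79 on the 5 wildtype arrays, 3.75, 3.82, 3.71, 3.93 and 3.85 on the CD11c-negative and 3.92, 3.96, 4.04, 4.00 and 4.07 on the CD11c-positive MC4R-KO arrays. The ranges of wildtype and CD11c-negative cells overlapped, with 0.03 ± 0.044 (adjusted p = 0.488), and quantile normalization turned this to -0.24, called lower. The CD11c-positive arrays were the highest, and the gene rose there against CD11c-negative cells by 0.18 (SE 0.044, adjusted p = 0.00304), although an array of each overlapped.

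Ndufb8, an accessory subunit of the membrane arm whose protein is widely used as a marker of assembled complex I, had the largest change in the complex. The Ndufb8 level was 5.53, 5.51, 5.48, 5.63 and 5.65 on the 5 wildtype arrays, 6.44, 6.41, 6.39, 6.62 and 6.53 on the CD11c-negative and 6.27, 6.26, 6.39, 6.39 and 6.37 on the CD11c-positive MC4R-KO arrays. All MC4R-KO arrays lay above all wildtype arrays. CD11c-negative cells exceeded wildtype by 0.92 ± 0.049 (adjusted p = 3.29e-10, limma), or 1.89-fold, and by 0.49 after quantile normalization. CD11c-positive cells differed from CD11c-negative cells by -0.14 ± 0.049 (adjusted p = 0.0246), which did not pass after quantile normalization (-0.07) or when CD11c-negative replicate 4 or 5 or CD11c-positive replicate 1 or 2 was left out.

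Other membrane-arm subunits of complex I followed with Ndufb11 at 0.73 ± 0.087 and Ndufc2 at 0.72 ± 0.029, each 0.30 after quantile normalization. Another probe of Ndufb11 gave 1.11, over 2-fold, and between the MC4R-KO groups it gave -0.38 where the first gave -0.03. The lowest of those that rose was Ndufa5 with 0.13 ± 0.025, and Ndufb4 gave 0.33 ± 0.025; these accessory subunits of the matrix and membrane arms turned to -0.29 and -0.11 after quantile normalization. In CD11c-positive against CD11c-negative cells, complex I had 2 members higher, 17 lower and 17 not passed, with a median of -0.10 (-0.05 after quantile normalization). The core subunits had 1 higher and 3 lower, and the supernumerary ones 1 higher and 14 lower. Ndufc2 fell by 0.27 (SE 0.029), Ndufv3, a subunit at the flavin end, by 0.24 (SE 0.031) and Ndufb4 by 0.23 (SE 0.025), each also called lower after quantile normalization. Ndufs7 and Ndufs8 fell by 0.19 (SE 0.055, not passed within slide 1) and 0.21 (SE 0.047, not passed with normexp), while Ndufa9, which binds at the quinone module, gave 0.10 ± 0.038, a call kept in 16 of 28 alternatives. It was lost on slide 2 alone, without the filter, with the groups compared alone, and without wildtype replicate 1 or 5, CD11c-negative replicate 1, 2, 3 or 5, or CD11c-positive replicate 3, 4 or 5. Against wildtype, CD11c-positive cells had 35 of 36 members higher, the exception being Ndufa5 (-0.05 ± 0.025, adjusted p = 0.109, limma), whose other probe gave 0.10. After quantile normalization 14 members were higher and 10 lower, where 40.7% of all genes were higher and 34.1% lower.

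Complex II, succinate dehydrogenase, is the enzyme shared by the respiratory chain and the tricarboxylic acid cycle, and all 4 subunits were measured. All 4 rose in CD11c-negative MC4R-KO cells, with a median of 0.45, or 0.04 after quantile normalization, where 2 stayed higher and none was lower. Sdhb, the iron-sulphur subunit, gave 0.56 ± 0.038, and the membrane anchors Sdhc and Sdhd gave 0.53 ± 0.032 and 0.36 ± 0.031, with 0.07, 0.22 and 0.00 after quantile normalization.

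Sdha, the flavoprotein that oxidises succinate, was the member that rose most in CD11c-positive cells. The Sdha level was 4.18, 4.17, 4.23, 4.18 and 4.17 on the 5 wildtype arrays, 4.43, 4.48, 4.38, 4.42 and 4.47 on the CD11c-negative and 4.77, 4.78, 4.79, 4.77 and 4.73 on the CD11c-positive MC4R-KO arrays. The 3 groups did not overlap, in the order wildtype, CD11c-negative, CD11c-positive. CD11c-positive exceeded CD11c-negative cells by 0.33 ± 0.025 (adjusted p = 5.53e-08, limma) and by 0.35 after quantile normalization. The step from wildtype to CD11c-negative cells was 0.25 ± 0.025, which turned to -0.05 and was not called after quantile normalization. The other 3 subunits did not pass between the MC4R-KO groups: Sdhb gave -0.09 ± 0.038, Sdhc -0.03 ± 0.032 and Sdhd 0.01 ± 0.031. Whether the change of Sdha differed from theirs was not tested.

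Complex III, the cytochrome bc1 complex, had 8 members tested. In CD11c-negative MC4R-KO cells 7 rose against wildtype, with a median of 0.53 (0.12 after quantile normalization, with 4 higher and 1 lower). Uqcrc1 and Uqcrc2, the core proteins of the matrix side, gave 0.71 ± 0.047 and 0.36 ± 0.043, with 0.45 and 0.02 after quantile normalization. The small subunit Uqcr10 rose by 0.67 (SE 0.045) and Uqcr11 by 0.39 (SE 0.048), and the latter turned to -0.03 after quantile normalization.

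Uqcrb, a subunit that binds near the ubiquinone site, was the member of the complex that did not pass. The Uqcrb level was 5.82, 5.74, 5.79, 5.89 and 5.89 on the 5 wildtype arrays, 5.77, 5.82, 5.67, 5.87 and 5.90 on the CD11c-negative and 5.68, 5.65, 5.73, 5.68 and 5.73 on the CD11c-positive MC4R-KO arrays. The wildtype and CD11c-negative arrays overlapped, with -0.02 ± 0.044 (adjusted p = 0.688), and quantile normalization put the CD11c-negative cells at -0.45. The CD11c-positive arrays lay below all wildtype arrays, with a difference of -0.13 ± 0.044 (adjusted p = 0.0125), a call that was lost within slide 1.

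Uqcrfs1, the Rieske iron-sulphur protein that passes electrons to cytochrome c1, rose in both steps. The Uqcrfs1 level was 4.07, 4.05, 4.11, 4.17 and 4.15 on the 5 wildtype arrays, 4.57, 4.60, 4.56, 4.63 and 4.64 on the CD11c-negative and 4.81, 4.78, 4.78, 4.77 and 4.86 on the CD11c-positive MC4R-KO arrays. No group overlapped another. The gene gained 0.49 ± 0.030 from wildtype to CD11c-negative and 0.20 ± 0.030 from CD11c-negative to CD11c-positive cells (adjusted p = 1.35e-09 and 6.2e-05, limma), and 0.18 and 0.23 after quantile normalization. Of the other 7 members of complex III 5 fell in CD11c-positive cells. Uqcr10 and Uqcr11 each fell by 0.25 (SE 0.045 and 0.048) and stayed lower after quantile normalization, and Uqcrc1 and Uqcrc2, with -0.07 ± 0.047 and 0.01 ± 0.043, did not pass.

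**Figure D4:**
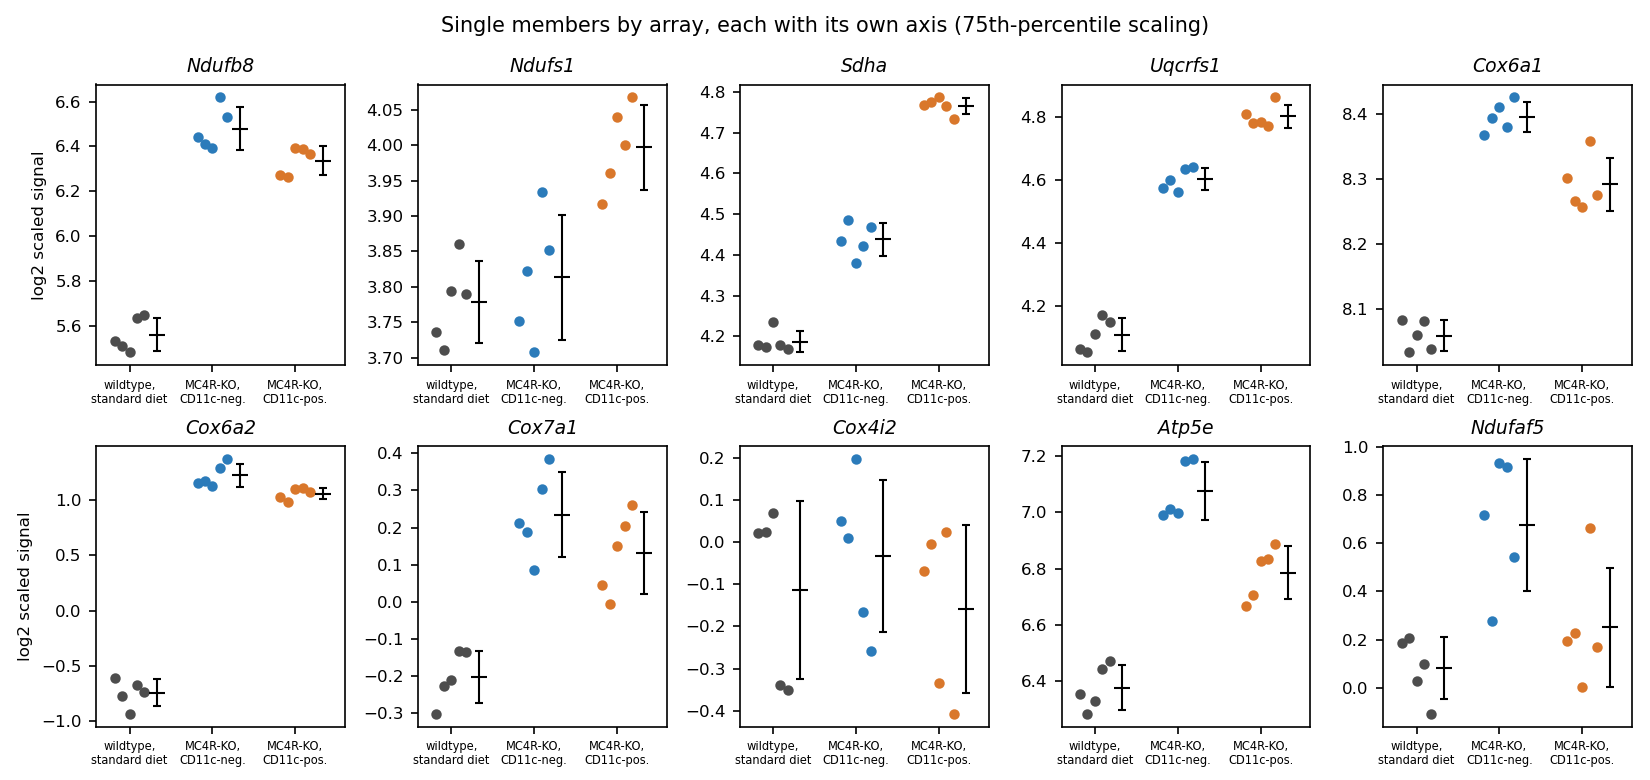
Log2 signal relative to the array's 75th percentile (y axis, a separate scale for each gene) of 10 members by group, with a point per array and a cross and bar for mean and SD of 5 arrays. Sdha and Uqcrfs1 climb from group to group without overlap, Cox6a2 stands from -0.93 to -0.61 in wildtype and at 0.98 or more on all MC4R-KO arrays, and Cox4i2 overlaps throughout; after quantile normalization the step from wildtype to CD11c-negative cells turns below 0 for Ndufs1, Sdha and Cox6a1.

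Complex IV, cytochrome c oxidase, is the complex with alternative isoforms, in which a form found in most tissues is paired with one known from heart, skeletal muscle, lung or testis. Of its 20 protein-coding genes taken in by the prefixes 16 were tested, and the 4 below the filter were all alternative forms. Cox8b and Cox8c were well above background on 0 of 15 arrays, Cox7b2 on 1 and Ndufa4l2 on 6. In CD11c-negative MC4R-KO cells 14 rose against wildtype and 2 did not pass, with a median of 0.45 (0.08 after quantile normalization, with 8 higher and 4 lower). In CD11c-positive against CD11c-negative cells 10 fell, 6 did not pass and 0 rose, with a median of -0.13. After quantile normalization 5 were lower and 3 higher, where 21.9% of all genes were lower and 32.7% higher. At an unadjusted p under 0.05, 0 members of complex IV were higher in CD11c-positive cells.

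Cox6a2, the subunit VIa isoform of heart and skeletal muscle, had the largest change of all members. The Cox6a2 level was -0.61, -0.77, -0.93, -0.67 and -0.73 on the 5 wildtype arrays, 1.15, 1.17, 1.13, 1.29 and 1.37 on the CD11c-negative and 1.03, 0.98, 1.09, 1.10 and 1.07 on the CD11c-positive MC4R-KO arrays. The MC4R-KO arrays all lay above the wildtype arrays, by more than the range within any group, and the MC4R-KO groups did not overlap. CD11c-negative cells exceeded wildtype by 1.96 ± 0.060 (adjusted p = 5.45e-13, limma), or 3.90-fold, and the difference was 1.97 after quantile normalization. CD11c-positive cells exceeded wildtype by 1.80 ± 0.060. They differed from CD11c-negative cells by -0.17 ± 0.060 (adjusted p = 0.0291), a call lost with normexp, without the filter, within slide 1 and when CD11c-negative replicate 4 or 5 or CD11c-positive replicate 1 or 2 was left out.

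Cox6a1 is the subunit VIa isoform of most other tissues. The Cox6a1 level was 8.08, 8.03, 8.06, 8.08 and 8.04 on the 5 wildtype arrays, 8.37, 8.39, 8.41, 8.38 and 8.43 on the CD11c-negative and 8.30, 8.27, 8.26, 8.36 and 8.28 on the CD11c-positive MC4R-KO arrays. On this scale no group overlapped another. CD11c-negative cells exceeded wildtype by 0.34 ± 0.024, but quantile normalization turned this to -0.13, called lower. CD11c-positive cells lay at -0.10 ± 0.024 against CD11c-negative cells, which turned to 0.09, called higher, after quantile normalization and did not pass with normexp or within slide 2. The direction of Cox6a1 thus depends on the scaling in both comparisons and that of Cox6a2 between the CD11c-negative groups does not.

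No member of the other isoform sets passed 2-fold. Cox4i1, the common isoform of subunit IV, rose by 0.69 (SE 0.059, 0.21 after quantile normalization), while Cox4i2, the lung and hypoxia isoform, gave 0.08 ± 0.12 (adjusted p = 0.541) with overlapping arrays in every comparison. Cox7a1, the heart and muscle form, rose by 0.44 (SE 0.062) and Cox7a2, its common partner, by 0.49 (SE 0.029), with 0.43 and 0.11 after quantile normalization. Cox7a2l, which tethers complexes III and IV into supercomplexes, gave 0.45 ± 0.038, or -0.02 after quantile normalization. Cox6b1 rose by 0.66 (SE 0.074), and its testis counterpart Cox6b2 gave 0.24 ± 0.093, a call lost with median scaling, without the filter and when wildtype replicate 4 or 5 or CD11c-negative replicate 1 or 3 was left out. Ndufa4, once counted with complex I and now placed in complex IV, and Cox8a rose by 0.34 (SE 0.036 and 0.023), and turned to 0.00 and -0.12 after quantile normalization. Cox7b rose by 0.48 (SE 0.027), or 0.02 after quantile normalization.

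Cox5a and Cox5b are peripheral subunits on the matrix side of the complex. The Cox5a level was 7.84, 7.82, 7.81, 7.87 and 7.81 on the 5 wildtype arrays, 7.78, 7.76, 7.70, 7.90 and 7.81 on the CD11c-negative and 7.63, 7.66, 7.71, 7.67 and 7.63 on the CD11c-positive MC4R-KO arrays. Cox5a overlapped between wildtype and CD11c-negative cells, with -0.04 ± 0.034 (adjusted p = 0.284), and its CD11c-positive arrays lay below all wildtype arrays, with -0.17 ± 0.034 (adjusted p = 0.000373). After quantile normalization these were -0.49 and -0.48. The Cox5b level was 5.43, 5.43, 5.44, 5.53 and 5.44 on the 5 wildtype arrays, 5.94, 5.84, 5.91, 5.99 and 6.02 on the CD11c-negative and 5.87, 5.90, 6.02, 6.07 and 5.95 on the CD11c-positive MC4R-KO arrays. Cox5b rose in CD11c-negative cells by 0.49 ± 0.043 (adjusted p = 8.76e-08, limma), or 0.08 after quantile normalization, and did not pass between the MC4R-KO groups (0.02 ± 0.043). Between the MC4R-KO groups, Cox5a gave -0.13 ± 0.034, a fall that was lost with normexp, with quantile normalization (0.01) and within slide 1, whereas Cox7a2, Cox7a2l and Ndufa4 fell by 0.15 (SE 0.029), 0.19 (SE 0.038) and 0.20 (SE 0.036), with -0.10, -0.07 and -0.15 after quantile normalization. The call of Cox7a2l was lost there, and that of Ndufa4 within slide 2.

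Complex V, the ATP synthase, had 17 members tested and all 17 rose in CD11c-negative MC4R-KO cells, with a median of 0.50 (0.13 after quantile normalization, with 10 higher and 5 lower). The 5 subunits of F1, the catalytic head, ran from 0.28 for Atp5a1 to 0.71 for Atp5c1, the central stalk subunit that turns inside the head. Atp5c1 kept 0.25 after quantile normalization, while Atp5a1, the alpha subunit, turned to -0.16. The 3 genes for the c-ring, the rotor in the membrane, encode the same mature protein with different import signals. Atp5g1, Atp5g2 and Atp5g3 gave 0.50 ± 0.034, 0.60 ± 0.036 and 0.22 ± 0.038, which became 0.05, 0.13 and -0.24 after quantile normalization. Of the 9 subunits of the stalk and membrane part, Atp5j2 rose by 0.68 (SE 0.042, 0.21 after quantile normalization), and Atp5j was lowest with 0.24 ± 0.026, or -0.13 after quantile normalization.

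Atp5b, the beta subunit that makes ATP, rose in both steps on the first scale. The Atp5b level was 6.97, 6.95, 6.96, 6.95 and 7.00 on the 5 wildtype arrays, 7.32, 7.34, 7.29, 7.36 and 7.31 on the CD11c-negative and 7.44, 7.42, 7.41, 7.38 and 7.47 on the CD11c-positive MC4R-KO arrays. No group overlapped another. CD11c-negative cells exceeded wildtype by 0.36 ± 0.023, but this turned to -0.11, called lower, after quantile normalization. CD11c-positive cells exceeded CD11c-negative cells by 0.10 ± 0.023 (adjusted p = 0.00201, limma), and by 0.22 after quantile normalization, but the call was lost within slide 2.

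Atp5e, the small epsilon subunit at the foot of the central stalk, had the largest fall of complex V in CD11c-positive cells. The Atp5e level was 6.36, 6.28, 6.33, 6.44 and 6.47 on the 5 wildtype arrays, 6.99, 7.01, 7.00, 7.18 and 7.19 on the CD11c-negative and 6.67, 6.71, 6.83, 6.84 and 6.89 on the CD11c-positive MC4R-KO arrays. Again no group overlapped another, with the CD11c-negative arrays highest. The difference of CD11c-positive from CD11c-negative cells was -0.29 ± 0.057 (adjusted p = 0.000621, limma), or -0.20 after quantile normalization. In complex V as a whole 3 members were higher in CD11c-positive than in CD11c-negative cells, 8 lower and 6 not passed, with a median of -0.07 that turned to 0.01 after quantile normalization, where 6 were higher and 5 lower. By parts of the enzyme, the stalk and membrane part had 7 of 9 lower, F1 had 2 higher and 1 lower of 5, and the c-ring 1 higher of 3. Whether the parts differed was not tested. The higher ones were Atp5b, Atp5a1 with 0.07 ± 0.029 and Atp5g3 with 0.10 ± 0.038, where the calls of Atp5a1 and Atp5g3 were kept in 17 and 15 of 28 alternatives. Both were lost within each slide, with median scaling, without the filter, and without CD11c-negative replicate 1 or 3 or CD11c-positive replicate 2, 3 or 5. That of Atp5a1 was also lost without CD11c-negative replicate 4 or CD11c-positive replicate 4, and that of Atp5g3 without wildtype replicate 1 or 3 or CD11c-positive replicate 1, and with the groups compared alone. Among the lower ones Atp5j2 fell by 0.22 (SE 0.042, -0.14 after quantile normalization), which did not pass with normexp. Atp5o, the subunit that joins head and stalk, gave -0.16 ± 0.048 and did not pass after quantile normalization, with normexp or within slide 2.

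Of the 12 assembly factors 10 rose in CD11c-negative MC4R-KO cells, with a median of 0.38, or 0.23 after quantile normalization with 8 higher and 2 lower. All 12 lay below the brightest of the 5 classes of genes. Of the 8 factors of complex I, Ndufaf3 gave 0.48 ± 0.063, Ndufaf6 0.40 ± 0.032 and Ndufaf8 0.39 ± 0.028, with 0.42, 0.37 and 0.27 after quantile normalization. Ndufaf4 and Ndufaf7, the latter a methyltransferase, did not pass, with 0.05 ± 0.10 and -0.09 ± 0.058. Ndufaf7 was the lowest of all 93 members and was called lower after quantile normalization, with -0.19. All 4 factors of complex II rose, with a median of 0.34.

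Ndufaf5, which hydroxylates a core subunit during assembly, had the largest fall of all members in CD11c-positive cells and also one of the widest spreads. The Ndufaf5 level was 0.19, 0.21, 0.03, 0.10 and -0.11 on the 5 wildtype arrays, 0.72, 0.28, 0.93, 0.91 and 0.54 on the CD11c-negative and 0.20, 0.23, 0.00, 0.66 and 0.17 on the CD11c-positive MC4R-KO arrays. The CD11c-negative arrays lay above all wildtype arrays, but 1 CD11c-positive array lay among the CD11c-negative ones. The difference of CD11c-positive from CD11c-negative cells was -0.42 ± 0.13 (adjusted p = 0.0158, limma), the same after quantile normalization, and it was lost within each slide. Among all 12 assembly factors 3 were higher and 3 lower in CD11c-positive than in CD11c-negative cells. Of all genes 29.9% were higher and 23.2% lower there, so these counts are near the background. Ndufaf6 rose by 0.12 (SE 0.032) and Ndufaf8 fell by 0.15 (SE 0.028), neither of which passed with normexp, nor Ndufaf6 within slide 1. Ndufaf7 gave 0.15 ± 0.058, a call kept in 17 of 28 alternatives. It was lost with normexp, after quantile normalization, without the filter, within each slide, and without CD11c-negative replicate 1, 2 or 3 or CD11c-positive replicate 3, 4 or 5.

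Among the 23 members with more than 1 probe above background, the probes differed by a median of 0.05 in the change between the CD11c-negative groups and by no more than 0.5 in any, with opposite signs for 2 members there and for 5 between the MC4R-KO groups. The widest differences between probes in the first of these comparisons were those of Ndufv3, Ndufb5, a membrane-arm subunit, and Ndufb11. Ndufv3 gave 0.51 on the probe used and 0.10 on the other, and Ndufb5 0.66 and 0.26. On the probe used, Ndufb5 was 3.57 on wildtype replicate 2 and 4.59 to 4.66 on the other wildtype arrays. That array lowers the wildtype mean behind the 0.66. Ndufb5 was not among the members searched for outlying values. In CD11c-positive against wildtype cells the probes of 2 members had opposite signs. Those of Ndufv3 gave 0.28 and -0.11, and those of Ndufa5 gave -0.05 and 0.10. The members of opposite sign between the CD11c-negative groups were Ndufaf4, with 0.05 and -0.22, and Uqcrb, from -0.17 to 0.02.

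Genes around the respiratory chain were described by the same counts, beside the 48.3% of all genes that rose in this comparison. Both cytochromes that carry electrons in complex III and between complexes, Cyc1 and Cycs, rose in CD11c-negative MC4R-KO cells, by 0.58 (SE 0.063) and 0.40 (SE 0.027). Of 32 assembly factors outside the prefixes 25 rose and 2 fell, with a median of 0.34 (0.14 after quantile normalization), from -0.26 for Cox15 to 0.75 for Coa4, both of which serve complex IV. The 4 genes of the ATP synthase inhibitor and the adenine nucleotide and phosphate carriers all rose, with a median of 0.28 that turned to -0.11 after quantile normalization. In the list of the tricarboxylic acid cycle and pyruvate entry 18 of 22 genes rose and 1 fell, with a median of 0.25 (0.01 after quantile normalization). The highest of this list was Acod1, the itaconate-making enzyme of activated macrophages, with 0.66 ± 0.039. The import machinery had 22 of 25 higher (median 0.48), the mitochondrial ribosome 75 of 77 (median 0.45) and the cytosolic ribosome 82 of 84 (median 0.56), with 0.22, 0.21 and 0.14 after quantile normalization. In cytosolic ribosomal genes as in the members, nearly all genes were called higher on the first scale.

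Of 11 regulators of mitochondrial biogenesis 4 rose, 1 fell and 6 did not pass, with a median of 0.07, under the 0.13 of all genes (-0.02 after quantile normalization). The one that fell was Ppargc1b, the coactivator PGC-1beta of respiratory genes, with -1.03 ± 0.082 (adjusted p = 2.78e-08, limma), and it also lay below wildtype in CD11c-positive cells, with -0.84 ± 0.082. Pprc1, a related coactivator, rose by 0.29 (SE 0.072), which did not pass within slide 2. Between the MC4R-KO groups, 73 of 84 cytosolic ribosomal genes fell in CD11c-positive cells (median -0.20, and -0.02 after quantile normalization), against 22 of 77 mitochondrial ribosomal genes, or 28.6%, with 8 higher (median -0.04, turning to 0.01 with normexp). The share of all genes that fell was 23.2%. The list of the tricarboxylic acid cycle and pyruvate entry had 7 of 22 higher, or 31.8% against 29.9% of all genes, and 2 lower (median 0.03). Acod1 fell by 0.38 (SE 0.039), and Slc25a3, the mitochondrial phosphate carrier, rose by 0.21 (SE 0.063). Of the regulators 1 rose, Yy1 with 0.19 ± 0.038, and 1 fell, Tfam, the mitochondrial transcription factor, with -0.10 ± 0.025, which was 0.01 when its probes were averaged.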

How the data were processed

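RNA was labelled with Cy3 and hybridised to 15 one-colour Agilent arrays, 5 per group, per the labels' protocols. The deposited scanner files hold spot intensity from Agilent Feature Extraction 10.7.3.1, background-subtracted per the file headers, with deposited flags (0 or 1) for spots well above background and for outliers. The authors' deposited value table holds log2 values that matched log2 processed signal minus the array's 75th percentile minus the wildtype median (median absolute difference 0.0015), and it served as an alternative.

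From the scanner files, control and outlier spots were left out, spots of a probe averaged, log2 taken and the array's 75th percentile subtracted. A probe was kept where 4 or 5 of the 5 arrays of any group had it well above background, and the brightest kept probe stood for a gene. Probe accessions were matched to RefSeq symbols for 20145 genes, of which 13391 were tested. Groups were compared with limma 3.58.1 in R 4.3.3 (lmFit and eBayes on all 15 arrays, 12 residual degrees of freedom, two-sided, Benjamini-Hochberg adjustment over all genes tested, threshold 0.05). An error after ± is the fit's standard error, and n is 5 arrays per group. The number of arrays limits the precision. The fit was tested on simulated data with known changes.

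Members and lists were chosen with earlier results of these data known. Named members are the redox and catalytic subunits, the isoform sets, the 2 members with the highest and the 2 with the lowest change of each complex and comparison, and the 6 genes with a printed NRF1 match, which were added after the values were seen. Of each other list, the genes with the highest and lowest change in a comparison may be named, beside Adgre1 and Itgax; ribosomal and import genes are given by counts only. One member that the rule names is not reported here by itself. Alternatives were normexp background correction, quantile and median scaling, other filters, slide as a block or alone, the replicate number as a block, a fit without the group that is not compared, averaging the probes of a gene, another variance prior, the deposited values and leaving out each array.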

Additional observations from a re-analysis of the deposited data

Results flagged for a closer look

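Among 5 arrays of a group, single values far from the other 4 were looked for in 57 members (the named ones and those with an NRF1 match shown) and in the medians of the complexes (Dixon's ratio, 95% critical value). Chance alone sets apart about 1 in 20 groups. Of 171 groups of member values 9 passed, or 5.26%, and of 21 groups of medians 1 passed, or 4.76%.

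In wildtype cells, Cox5b was 5.53 on replicate 4, above 5.43 to 5.44 on the others, and Sdha was 4.23 on replicate 3, above 4.17 to 4.18. Atp5l was 6.12 on wildtype replicate 2, below 6.37 to 6.46 on the others. In CD11c-negative MC4R-KO cells, Atp5j was 5.38 on replicate 3, below 5.45 to 5.46, Cox7a2 was 5.71 on replicate 5, above 5.63 to 5.64, and Cox7a2l was 7.38 on replicate 4, below 7.495 to 7.53. In CD11c-positive cells, Atp5o was 4.51 on replicate 4, below 4.71 to 4.79, Ndufs3 was 5.33 on replicate 1, below 5.398 to 5.42, and Sdhd was 5.39 on replicate 5, below 5.45 to 5.48. The median of complex IV was 0.24 on replicate 5 of the CD11c-negative MC4R-KO cells, above 0.15 to 0.17 on the others.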

How the results depend on the processing

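Quantile normalization gave 48 higher and 18 lower members with a median of 0.080 in CD11c-negative MC4R-KO against wildtype cells. It gave 19 higher with a median of -0.049 in CD11c-positive against CD11c-negative cells. In CD11c-positive against wildtype cells it gave 43 higher and 18 lower with a median of 0.069. Of all genes it called 36.1%, 32.7% and 40.7% higher in the same order, and 37.6%, 21.9% and 34.1% lower. Among the named genes and lists, it turned these changes below 0 in the first comparison: Atp5a1 (-0.16), Atp5b (-0.11), Atp5g3 (-0.24), Atp5j (-0.13), Atpif1 (-0.19), Cox6a1 (-0.13), Cox7a2l (-0.021), Cox8a (-0.12), Fh1 (-0.0053), Ndufa5 (-0.29), Ndufb4 (-0.11), Ndufs1 (-0.24), Ndufs3 (-0.052), Sdha (-0.054), Slc25a3 (-0.02), Slc25a4 (-0.14), Tfam (-0.050), Uqcr11 (-0.031), Adgre1 (-0.057), and the medians of the inhibitor and carriers (-0.11) and of the regulators (-0.020). Between the MC4R-KO groups it turned Atp5g2 (0.12), Cox5a (0.0092), Cox6a1 (0.090), Cox7b (0.0018), Cox8a (0.11) and the median of complex V (0.012) above 0. In CD11c-positive against wildtype cells it turned below 0 Atp5a1 (-0.037), Atp5g3 (-0.084), Atp5j (-0.12), Atp5o (-0.071), Atpif1 (-0.15), Cox6a1 (-0.035), Cox7a2l (-0.088), Cox8a (-0.0068), Cycs (-0.0042), Ndufa4 (-0.15), Ndufb4 (-0.27), Ndufs1 (-0.048), Ndufs7 (-0.10), Ndufs8 (-0.038), Ndufv2 (-0.036), Ndufv3 (-0.090), Tfam (-0.18), Uqcr11 (-0.21), and the medians of the inhibitor and carriers (-0.0094) and of the regulators (-0.052). Sign changes where neither value passed, and those of members not named by the rule, are not listed. Over all 93 members, 14 calls went from higher to lower in the first and 15 in the last comparison. The cause was not tested.

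Median scaling gave 3 lower members and a median of 0.38 in the first comparison, and in CD11c-positive against wildtype cells a median of 0.26, regulators at -0.023 and Tfam at -0.077. The count of members lower in CD11c-positive than in CD11c-negative cells, 43, ranged from 23 with normexp to 59 with slide as a block. The 23 were 24.7% of the members, against 25.5% of all genes. With normexp, the median of all 93 members there was -0.058, and Cox7b (0.014), the cytochromes (0.0044) and the mitochondrial ribosome (0.0077) turned above 0. Without the filter 6 members were higher in CD11c-positive than in CD11c-negative cells, among 97 tested, and on slide 2 alone 4. On slide 1 alone 1 member was lower in CD11c-positive than in wildtype cells. With the mean of a gene's probes, Tfam was 0.0096 between the MC4R-KO groups and Cox15 -0.18 in CD11c-positive against wildtype cells. Leaving out single arrays gave 0 to 1 lower members in the first comparison, with 1 without CD11c-negative replicate 4, and 6 to 10 higher members between the MC4R-KO groups.

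With the replicate block, 87 members were higher and 0 lower in the first comparison, 11 higher and 54 lower in the second, and 85 higher and 2 lower in the third. Same-numbered arrays of different groups correlated between 0.06 and 0.37 on the same slide (13 pairs, 11 above 0.1, median 0.24) and at -0.20 and -0.17 on different slides. Differently numbered arrays on the same slide had a median of 0.18. Between the MC4R-KO groups, same-numbered arrays on the same slide gave 0.29, 0.20, 0.24 and 0.23, and replicate 3, on different slides, gave -0.20. Differently numbered arrays of these groups on the same slide ran from 0.06 to 0.30. Whether the numbers mark pairs within the MC4R-KO livers was not tested, and the main fit did not take them as pairs.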
